A study of Mus musculus with 10 samples.

Results

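The 35 genes described here build and police the meiotic spindle: the spindle assembly checkpoint, the outer kinetochore, the chromosomal passenger complex and its kinases, the shugoshins, spindle motors, the anaphase-promoting complex (APC/C) with its regulators, and the B-type cyclins with CDK1. They were chosen by name from a list and looked up by gene symbol, and all 35 were found among the 18493 genes of the count table. All 35 also passed the filter on low counts, which kept 12315 genes. Mouse oocytes, the germ cells of the ovary, were profiled by SMART-seq2, which primes reverse transcription on the poly(A) tail, copies whole transcripts and amplifies them before sequencing. The groups were spermidine oocytes (n = 4 libraries, given as a rescue), aged oocytes (n = 3, tagged as treatment) and young oocytes (n = 3, given as the control). Spermidine belongs to the polyamines, small cations that cells make, and the series sets oocytes labelled with it beside aged and young ones. The labels give no strain, age, dose, meiotic stage or number of oocytes per library, and do not say whether the spermidine oocytes came from aged animals or whether libraries came from separate animals, so that p-values measure the spread between these libraries, which may be technical.

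An oocyte stores the mRNAs of its division machinery while it grows and translates many of them only when meiosis resumes, so the level of a stored mRNA is not the level of its protein. At each division, kinetochores that are not attached to spindle fibres keep the checkpoint active, the checkpoint proteins hold back the APC/C activator CDC20, and the APC/C then destroys securin and cyclin B once all chromosomes are attached. Separase, freed from securin, cuts the cohesin that holds chromosomes together, and errors in these steps are a known source of aneuploid eggs, which become more frequent with maternal age.

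Each library held 24222185 to 28730790 counts and 15326 to 15711 genes with a count, and the rarest of the 35 genes, Mad1l1, had 120 to 300 counts per library. All 12 oocyte markers were present, with a summed level of 23000 to 44800 CPM (the count over the library total, times a fixed factor) in spermidine, 33900 to 45500 CPM in aged and 32500 to 36900 CPM in young oocytes. The 11 granulosa and cumulus markers summed to 20.2 to 26.2 CPM in spermidine, 18.5 to 22.2 CPM in aged and 19.4 to 22.3 CPM in young oocytes. Most of these sums came from Cyp19a1 (8.81 to 16.7 CPM over all libraries) and Nr5a2 (3.63 to 8.15 CPM). Foxl2 and Amh were at or under 0.202 CPM in every library. The 8 theca and stroma markers summed to 1.27 to 1.77 CPM, 0.917 to 1.43 CPM and 1.29 to 3.82 CPM in the same groups, and the 10 blood and immune markers to 77.2 to 108 CPM, 69.6 to 82.4 CPM and 37.1 to 77.5 CPM. Of that sum, Ms4a1 gave 75.9 to 107 CPM in spermidine, 68.9 to 70.6 CPM in aged and 36.0 to 62.0 CPM in young oocytes. Haemoglobin transcripts reached at most 0.109 CPM in spermidine, 9.61 CPM in aged and 19.9 CPM in young oocytes. Fewer cells of a type and less RNA per cell cannot be told apart in such data.

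CPM values rest on library totals scaled by TMM, which assumes that most genes are equal between libraries. Per kilobase of annotated transcript, the most abundant of the 35 transcripts was Pttg1, which encodes securin, at 4477 CPM per kb over all libraries. It was followed by Birc5 (survivin, a passenger subunit) at 1368, Ccnb1 (cyclin B1) at 902, Ccnb2 (cyclin B2) at 199, Aurka (aurora A kinase) at 185 and Aurkc (aurora C kinase) at 181 CPM per kb. The lowest were Ccnb3 (cyclin B3) at 3.86, Espl1 (separase) at 2.80 and Mad1l1 (the checkpoint protein MAD1) at 2.57 CPM per kb. Securin thus led the list, and separase, the protease that securin holds back, stood near its end. Annotated transcripts were short for Pttg1 (720.5 bases) and Birc5 (947) and long for Espl1 (6646.5), while the lowest, Mad1l1, had 2640 bases. Whether transcript length or priming on the poly(A) tail shaped this order was not tested.

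How many of the genes differed between aged and young oocytes depended on the processing. With edgeR and TMM, 3 of the 35 genes were higher in aged oocytes and 0 were lower. This is 8.57% of them, against 17.8% of all 12315 genes tested (9.71% higher and 8.06% lower). The genes that rose were Ndc80, the kinetochore subunit that grips spindle fibres, Espl1, the protease separase that opens anaphase, and Bub1b, the checkpoint protein BUBR1. The median log2 fold change of the 35 was 0.03, with 19 above 0 and 16 below, against a median of 0.10 over all genes tested. At an unadjusted p under 0.05 there were 7 genes, against 34.7% of all genes tested. DESeq2 called 7 genes (6 higher and 1 lower), against 21.4% of all genes it tested. With a correction for transcript length and GC content, edgeR called 6 genes (6 higher and 0 lower), against 15.5% of all genes tested. In 5 genes every aged library lay above every young one and in 3 every aged library lay below, which is 22.9% of the 35, against 40% of all genes tested (21.1% higher and 18.8% lower).

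Between spermidine and aged oocytes, 0 of the 35 genes rose and 1 fell, Ttk, the kinase MPS1 that starts checkpoint signalling at kinetochores. This is 2.86% of the 35, against 4.86% of all genes tested (2.42% higher and 2.44% lower). At an unadjusted p under 0.05 there were 9 genes, against 24.2% of all genes tested, and DESeq2 called 6 genes (1 higher and 5 lower), against 11.6% of all genes it tested. The median log2 fold change was -0.21, with 10 genes above 0 and 25 below, against a median of -0.03 over all genes tested. Groups did not overlap for 1 gene on the higher and 6 on the lower side, which is 20% of the 35, against 19.9% of all genes (11.4% higher and 8.49% lower).

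Between spermidine and young oocytes, 2 genes were higher, Ndc80 and the oocyte and spermatocyte aurora kinase gene Aurkc, and 0 were lower, which is 5.71% of the 35 against 5.36% of all genes tested (3.44% higher and 1.92% lower). At an unadjusted p under 0.05 there were 8 genes, against 20% of all genes tested, and DESeq2 called 2 genes (2 higher and 0 lower), against 8.21% of all genes it tested. Here the median was -0.09, with 12 above 0 and 23 below, against 0.04 over all genes, and groups did not overlap for 3 genes on the higher and 5 on the lower side (22.9%, against 21% of all genes, 12.1% higher and 8.92% lower). The shares of calls in these edgeR results were near or under those of the whole table. With a correction for transcript length and GC content, described below, edgeR called 4 of the 35 in each comparison with spermidine. This was a larger share than the 6.18% (against aged) and 7.54% (against young) of all genes. The comparisons share libraries, so they are not independent of each other. The first and the second share the aged libraries, the first and the last the young ones, and the second and the last the spermidine ones. Scaling by library totals alone moved the median of all genes from 0.10 to 0.24 in the comparison of aged with young oocytes and from 0.04 to 0.23 in that of spermidine with young oocytes, and there 26 and 21 of the 35 genes lay above 0.

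**Figure D1:**
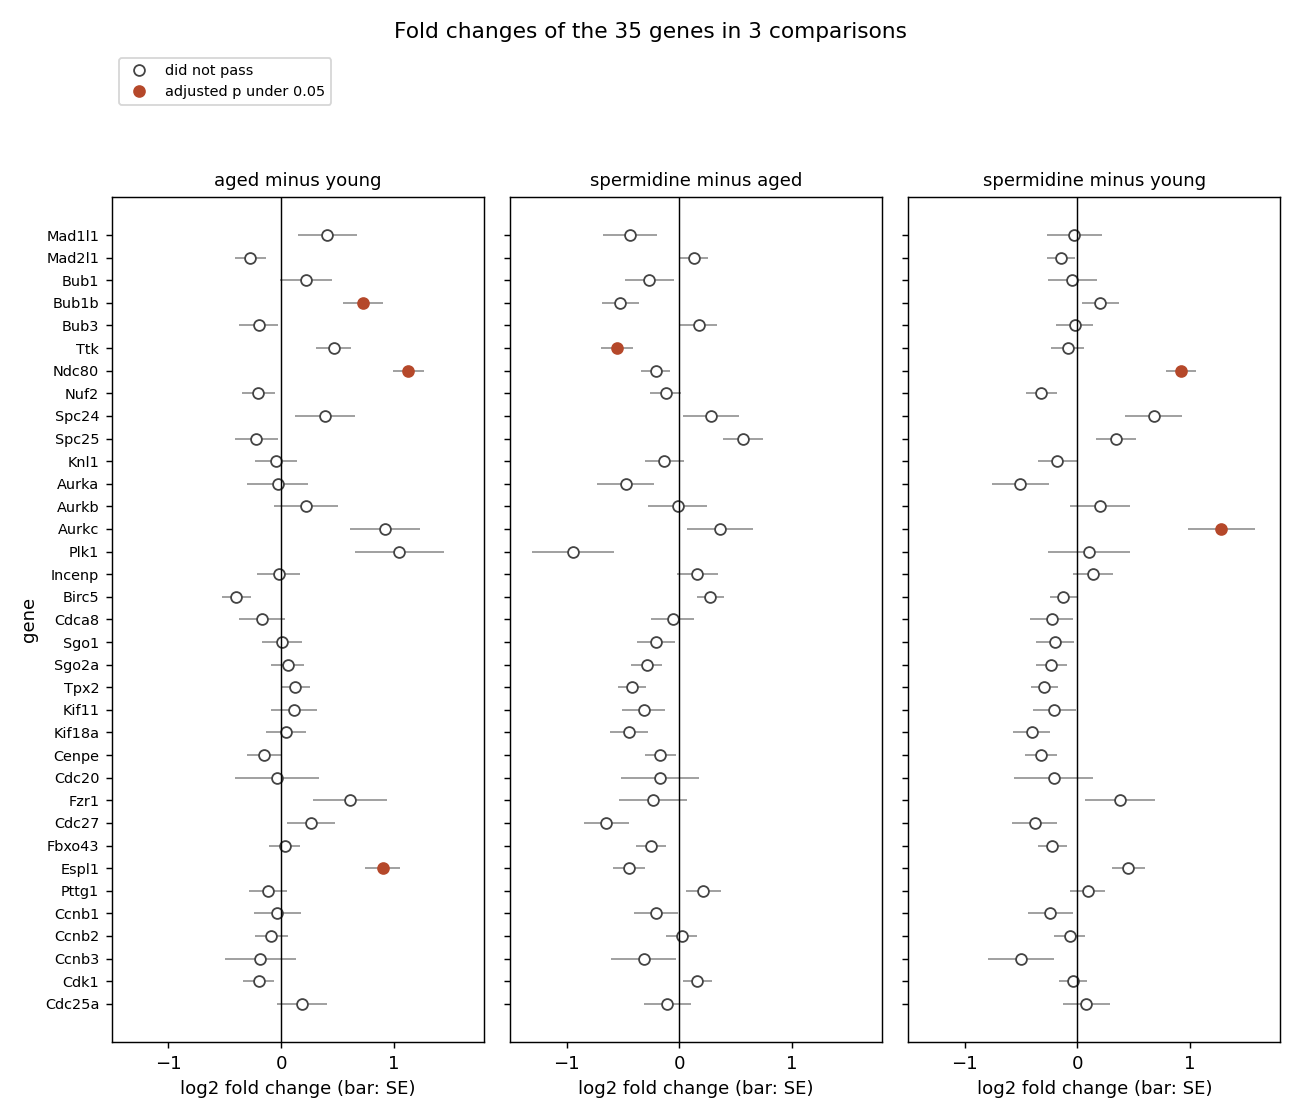
Log2 fold change of each of the 35 genes (rows) in the 3 comparisons (panels), with the SE as a bar and filled points where the edgeR adjusted p was under 0.05. Filled points are Ndc80, Espl1 and Bub1b for aged minus young, Ttk for spermidine minus aged, and Ndc80 and Aurkc for spermidine minus young.

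The 300 bases around the start of the 5 genes that passed in a comparison (250 before it and 50 after it) are shown because promoters of cell division genes commonly carry a pair of elements, the cell cycle homology region (CHR), bound by the MuvB complex, and the CCAAT box, bound by NF-Y. They come from RefSeq on GRCm38.p6, read 5′ to 3′ on the strand of the gene, with capitals marking each TTTGAA (CHR) and CCAAT, which read TTCAAA and ATTGG where they lie on the other strand.
Ndc80 (chr17:71526808-71527107, minus strand): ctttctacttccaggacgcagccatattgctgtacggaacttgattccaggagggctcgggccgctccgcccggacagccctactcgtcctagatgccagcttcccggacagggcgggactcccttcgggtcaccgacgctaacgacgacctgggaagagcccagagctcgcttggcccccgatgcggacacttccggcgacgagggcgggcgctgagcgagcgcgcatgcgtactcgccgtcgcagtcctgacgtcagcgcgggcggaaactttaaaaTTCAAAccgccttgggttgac
Espl1 (chr15:102296043-102296342, plus strand): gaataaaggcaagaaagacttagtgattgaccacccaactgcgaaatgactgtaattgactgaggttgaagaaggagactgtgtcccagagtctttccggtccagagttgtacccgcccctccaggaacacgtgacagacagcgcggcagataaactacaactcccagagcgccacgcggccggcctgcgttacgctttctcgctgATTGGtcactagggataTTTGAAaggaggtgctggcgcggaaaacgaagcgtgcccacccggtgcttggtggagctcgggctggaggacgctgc
Bub1b (chr2:118597961-118598260, plus strand): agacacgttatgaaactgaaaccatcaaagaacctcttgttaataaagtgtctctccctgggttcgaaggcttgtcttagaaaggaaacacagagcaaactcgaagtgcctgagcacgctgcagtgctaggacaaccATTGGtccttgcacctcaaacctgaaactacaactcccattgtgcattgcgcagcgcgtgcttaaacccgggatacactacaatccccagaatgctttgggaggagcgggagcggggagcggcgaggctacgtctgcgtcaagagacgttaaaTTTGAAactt
Ttk (chr9:83834439-83834738, plus strand): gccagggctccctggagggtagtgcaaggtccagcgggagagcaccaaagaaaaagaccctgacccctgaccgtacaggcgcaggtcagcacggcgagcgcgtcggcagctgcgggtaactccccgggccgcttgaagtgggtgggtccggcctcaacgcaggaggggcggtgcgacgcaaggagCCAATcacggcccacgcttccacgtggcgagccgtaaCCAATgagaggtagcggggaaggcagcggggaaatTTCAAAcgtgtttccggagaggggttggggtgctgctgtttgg
Aurkc (chr7:6995135-6995434, plus strand): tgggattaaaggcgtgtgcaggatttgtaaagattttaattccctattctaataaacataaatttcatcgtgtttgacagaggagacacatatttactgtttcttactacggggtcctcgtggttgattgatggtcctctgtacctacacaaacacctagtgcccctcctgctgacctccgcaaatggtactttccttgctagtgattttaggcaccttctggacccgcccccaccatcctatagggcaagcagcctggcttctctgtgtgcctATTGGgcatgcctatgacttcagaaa

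Promoters of 30 of the 35 genes were matched, 33 promoters in all, and Aurkb, Tpx2, Spc24, Fbxo43 and Incenp were not matched. Searched on both strands, TTTGAA stood in 15 of the 33 promoters, against 17.9% of all 32851 promoters of that table, and CCAAT in 23 of 33, against 37.4%. Both stood in 13 of 33, against 6.95% of all promoters. The letters of the motifs share no bases in the 5 shown, but they share a base in Cdca8. Bub3 is counted with 2 overlapping windows that hold the same motifs. By gene, TTTGAA stood in 14 of 30, against 20.2% of all genes, and CCAAT in 21 of 30, against 41.1%. Both stood in 12 of 30 genes, and the share over all genes is not given. TTTGAA lay before the start in Espl1 (first base at -27, with CCAAT at -44) and after it in Ndc80 (30), Bub1b (41, with CCAAT at -113) and Ttk (8, with CCAAT at -65 and -28). The Aurkc window held CCAAT at 25 and no TTTGAA. A match of letters is a description and not a bound site.

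Of the 6 checkpoint genes, 1 rose in aged against young oocytes (16.7%, against 17.8% of all genes tested) and 1 fell in spermidine against aged oocytes (16.7%, against 4.86%), which in a list this short is a single gene. Bub1b stood at 461, 356, 307 and 334 CPM in the 4 spermidine libraries, at 618, 488 and 466 CPM in the aged and at 284, 353 and 314 CPM in the young. Every aged library lay above every young library, while spermidine libraries overlapped the young and lay below the aged. Bub1b averaged 524 ± 82.1 CPM in aged and 317 ± 34.3 CPM in young oocytes (SD, n = 3 each), a log2 fold change of 0.72 (SE 0.18, edgeR adjusted p = 0.0164). This call was lost without aged 1 (edgeR adjusted p = 0.0514), without young 1 (0.0884) and without young 3 (0.0719). The spermidine mean of 364 ± 67.5 CPM (SD, n = 4) lay below the aged mean with a log2 fold change of -0.52 (SE 0.16) that did not pass (edgeR adjusted p = 0.0784).

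Ttk stood at 150, 116, 137 and 167 CPM in spermidine, at 231, 203 and 194 CPM in aged and at 150, 135 and 169 CPM in young oocytes. All aged libraries lay above all others, and spermidine and young libraries overlapped, with spermidine 2 below all young ones. The log2 fold change of spermidine against aged oocytes was -0.55 (SE 0.14, edgeR adjusted p = 0.0496), just inside the threshold of 0.05. It stayed negative in all 19 alternative analyses, from -0.64 to -0.48, but passed in 6 of them, with edgeR and DESeq2 adjusted p-values from 0.00673 to 0.151. It was lost with library totals, without a filter, with only the 2 groups compared, without aged 1 and spermidine 1 together, and without any single library other than spermidine 4. Aged against young gave 0.47 (SE 0.16, edgeR adjusted p = 0.0568), just outside the threshold. It also passed in 6 of 19 alternatives, with log2 fold changes from 0.342 to 0.615 over all 19.

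The other checkpoint genes passed in no comparison. Mad2l1, which encodes the MAD2 protein that binds CDC20, averaged 608 ± 57.7 CPM in spermidine (SD, n = 4), 556 ± 16.6 CPM in aged and 673 ± 80.4 CPM in young oocytes (SD, n = 3 each). Bub3, the partner that carries BUBR1 and BUB1 to kinetochores, averaged 199 ± 30.5, 177 ± 33.9 and 203 ± 15.2 CPM in the same order. Bub1, the kinase that marks centromeres for the shugoshins, averaged 65.0 ± 7.74, 78.1 ± 28.6 and 67.1 ± 12.7 CPM, and Mad1l1 averaged 6.09 ± 0.51, 8.25 ± 3.18 and 6.21 ± 0.76 CPM. The wide aged SD of Bub1 and Mad1l1 came from 1 library each way, since aged 1 had 111 CPM of Bub1 against 64.8 and 58.6 CPM in aged 2 and 3, and 4.77 CPM of Mad1l1 against 8.98 and 11.01 CPM.

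**Figure D2:**
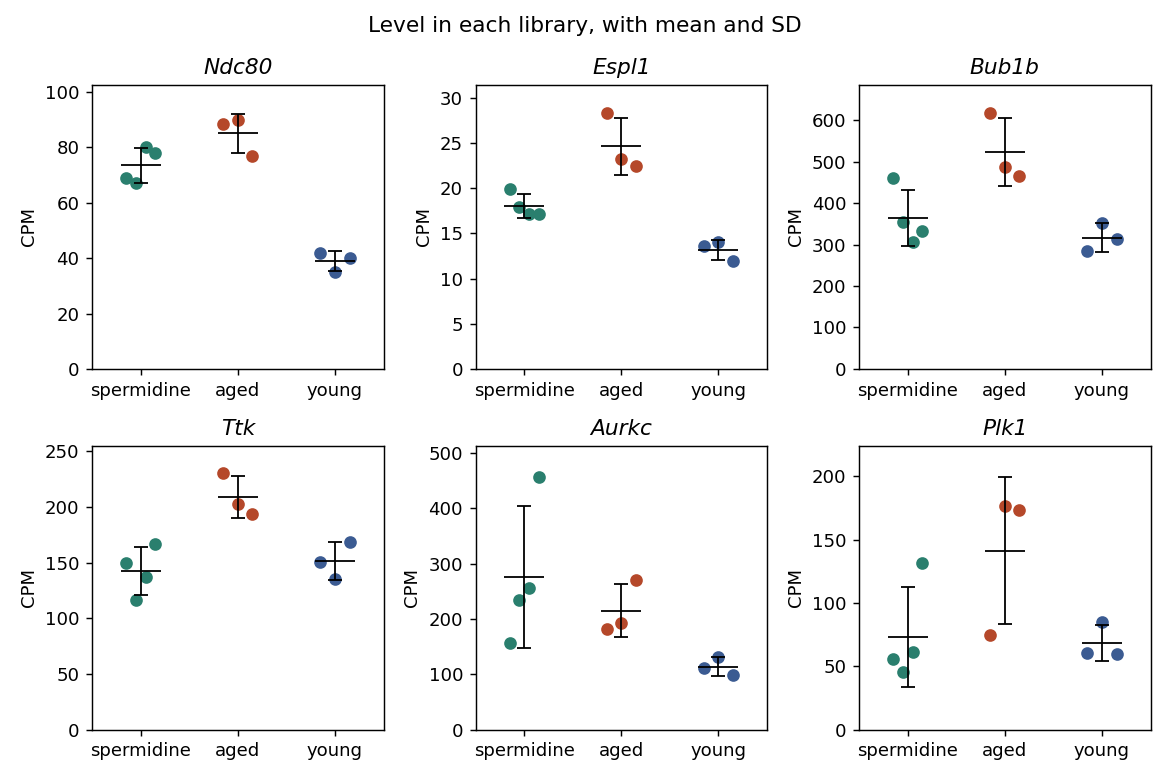
CPM of Ndc80, Espl1, Bub1b, Ttk, Aurkc and Plk1 in each library (points), with group mean and SD (line and bar), for spermidine, aged and young oocytes, each axis from 0. Aged libraries of Ndc80 lie between 76.9 and 89.9 CPM and young ones between 35.2 and 41.9 CPM, while Plk1 of aged oocytes splits into 74.5 CPM in 1 library and 173 and 176 CPM in the other libraries.

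Among the 5 outer kinetochore genes, Ndc80 alone passed, in aged and in spermidine against young oocytes (20% of the 5, against 17.8% and 5.36% of all genes tested). It stood at 68.9, 67.3, 80.1 and 77.9 CPM in spermidine, at 88.3, 89.9 and 76.9 CPM in aged and at 41.9, 35.2 and 39.9 CPM in young oocytes. All spermidine and all aged libraries lay above all young ones, and spermidine and aged libraries overlapped. The log2 fold change was 1.13 for aged against young oocytes (SE 0.14, edgeR adjusted p = 0.000535), a ratio of 2.18. For spermidine against young oocytes it was 0.92 (SE 0.13, edgeR adjusted p = 0.00156). Both calls held in all 19 alternatives, with log2 fold changes of 1.05 to 1.32 and of 0.85 to 1.09. Spermidine against aged oocytes gave -0.21 (SE 0.13, edgeR adjusted p = 0.34).

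NDC80 works as a complex of 4 proteins, and none of the genes of its partners passed in a comparison. Nuf2 averaged 238 ± 31.4 CPM in spermidine (SD, n = 4), 259 ± 28.4 CPM in aged and 298 ± 23.3 CPM in young oocytes (SD, n = 3 each), and its spermidine libraries lay below all young ones without passing (log2 fold change -0.32, SE 0.14, edgeR adjusted p = 0.215). Spc25 averaged 170 ± 38.1, 115 ± 7.75 and 134 ± 15.5 CPM in the same order. Spc24 stood at 87.7, 75.6, 43.6 and 81.9 CPM in spermidine, at 40.4, 61.9 and 75.6 CPM in aged and at 49.3, 47.7 and 38.7 CPM in young oocytes, with groups that overlap (spermidine against young 0.68, SE 0.25, edgeR adjusted p = 0.153). Knl1, the scaffold on which checkpoint proteins assemble, averaged 35.3 ± 1.34, 38.7 ± 11.1 and 40.0 ± 3.31 CPM. Counts of Spc24 and Knl1 were not whole numbers in any of the 10 libraries. Estimated counts of a gene can be fractional where reads match transcripts of more than 1 gene, so the levels of Spc24 and Knl1 are less certain. Counts were also not whole in 9 libraries for Kif11 and Fbxo43, in 6 for Sgo2a and in 3 for Cdc27 and Kif18a.

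Ratios of genes within a library do not depend on how libraries are scaled, and are read here between groups only, since they are not corrected for transcript length. The ratio of Ndc80 to Nuf2 CPM was 0.344, 0.294, 0.292 and 0.313 in spermidine, 0.389, 0.319 and 0.287 in aged and 0.145, 0.126 and 0.123 in young oocytes. Young libraries lay below all others, with a log2 difference of 1.33 for aged minus young (exact two-sided permutation p = 0.1, the smallest that 3 against 3 libraries allow) and of 1.25 for spermidine minus young (exact two-sided permutation p = 0.0571, the smallest that 4 against 3 allow). The ratio of Ttk to Mad2l1 was 0.266, 0.175, 0.21 and 0.302 in spermidine, 0.419, 0.353 and 0.357 in aged and 0.213, 0.232 and 0.231 in young oocytes, so the aged libraries lay above all others. Of 27 tests on 9 such ratios, chosen after values were seen, the lowest Benjamini-Hochberg adjusted exact permutation p was 0.192. No ratio could pass with these group sizes, since the smallest p they allow lie above the threshold before adjustment. The ratios are therefore given as a description.

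**Figure D3:**
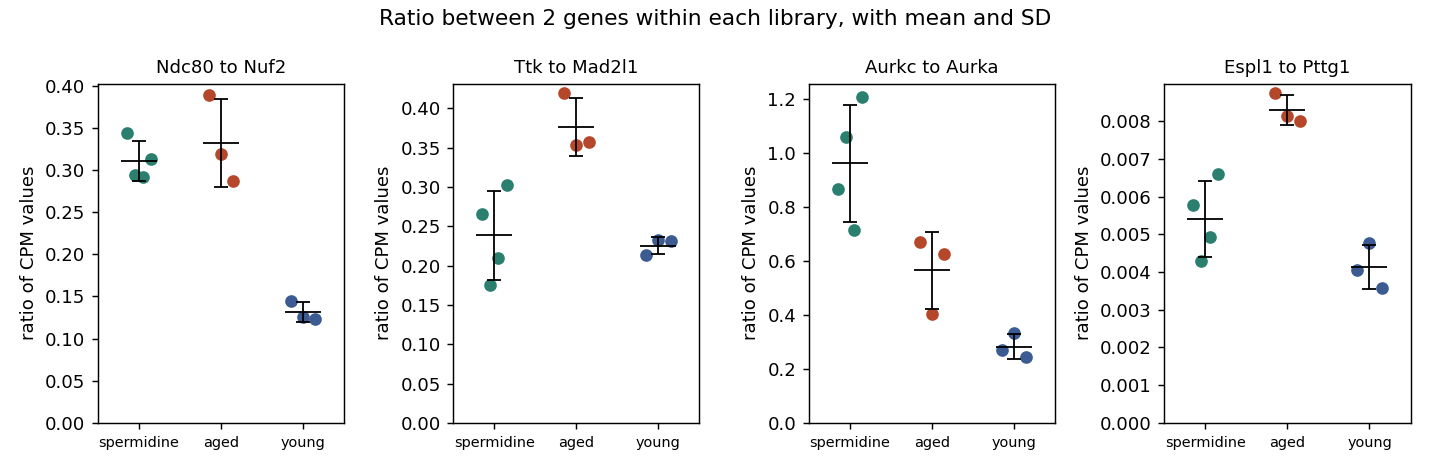
Ratio of CPM of 2 genes within each library (points), with group mean and SD (line and bar), for Ndc80 to Nuf2, Ttk to Mad2l1, Aurkc to Aurka and Espl1 to Pttg1 in spermidine, aged and young oocytes. Ratios of Ndc80 to Nuf2 lie between 0.287 and 0.389 in spermidine and aged libraries and between 0.123 and 0.145 in young ones.

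Of the 7 genes for kinases and chromosomal passenger proteins, Aurkc passed in 1 comparison, spermidine against young oocytes (14.3%, against 5.36% of all genes tested). Aurora C is the aurora kinase typical of germ cells, where it shares the passenger role of aurora B. Aurkc stood at 157, 235, 255 and 457 CPM in spermidine, at 182, 193 and 270 CPM in aged and at 111, 132 and 98.6 CPM in young oocytes. All young libraries lay below all others, and spermidine 4 was far above the other spermidine libraries. The log2 fold change was 1.28 for spermidine against young oocytes (SE 0.30, edgeR adjusted p = 0.0283) and passed in 15 of 19 alternatives. It was lost without spermidine 2 (edgeR adjusted p = 0.0548), without young 1 (0.138), without young 2 (0.0602) and without young 3 (0.153). Aged against young gave 0.92 (SE 0.31, edgeR adjusted p = 0.0588), which did not pass, though it did in 8 of 19 alternatives.

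Aurka, which works at spindle poles, stood at 180, 223, 357 and 377 CPM in spermidine, at 272, 479 and 433 CPM in aged and at 412, 395 and 403 CPM in young oocytes. All spermidine libraries lay below all young ones, without passing (log2 fold change -0.51, SE 0.25, edgeR adjusted p = 0.291). Aurkb stood at 9.99, 10.3, 16.9 and 19.4 CPM in spermidine, at 9.94, 16.9 and 16.0 CPM in aged and at 10.2, 14.3 and 12.3 CPM in young oocytes, with groups that overlap. The ratio of Aurkc to Aurka was 0.869, 1.06, 0.715 and 1.21 in spermidine, 0.671, 0.403 and 0.625 in aged and 0.27, 0.333 and 0.245 in young oocytes. These ratios did not overlap between any pair of groups, with log2 differences of 0.77 for spermidine minus aged (exact two-sided permutation p = 0.0571), 1.75 for spermidine minus young (exact two-sided permutation p = 0.0571) and 0.98 for aged minus young (exact two-sided permutation p = 0.1). Each is the smallest p its group sizes allow. Since even these lie above the threshold, none could pass, with or without adjustment, and the tests decide nothing here. Counts of Aurka, and of the passenger gene Birc5, were not whole in any of the 10 libraries.

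Birc5 stood at 1239, 1410, 1352 and 1313 CPM in spermidine, at 1029, 1139 and 1127 CPM in aged and at 1643, 1298 and 1402 CPM in young oocytes. Aged libraries lay below all others, with a log2 fold change of -0.40 against young oocytes (SE 0.13, edgeR adjusted p = 0.0531) and of 0.27 for spermidine against aged oocytes (SE 0.12, edgeR adjusted p = 0.193), and neither passed. The first of these passed in 4 of 19 alternatives, among them RLE factors and DESeq2, and was -0.02 after a correction for transcript length and GC content. Incenp, the scaffold of the passenger complex, averaged 13.9 ± 2.77 CPM in spermidine (SD, n = 4), 12.4 ± 0.68 CPM in aged and 12.6 ± 2.00 CPM in young oocytes (SD, n = 3 each), and Cdca8, which encodes borealin, averaged 185 ± 34.3, 193 ± 48.3 and 217 ± 18.2 CPM.

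Plk1, the polo-like kinase of spindle poles and kinetochores, is given here because its values stood out. It stood at 55.4, 45.6, 61.0 and 132 CPM in spermidine, at 74.5, 176 and 173 CPM in aged and at 60.4, 85.1 and 59.9 CPM in young oocytes. Of the aged libraries, aged 2 and 3 lay above all others and aged 1 lay among the young, and spermidine 4 had over 2 times the level of each other spermidine library. The log2 fold changes were 1.05 for aged against young (SE 0.39, edgeR adjusted p = 0.0833) and -0.94 for spermidine against aged oocytes (SE 0.36, edgeR adjusted p = 0.136), and neither passed. In the authors' deposited table, 5 of the 35 genes had a q-value under 0.05 for aged against young oocytes, Bub1b, Ndc80, Aurkc, Plk1 (q-value 0.017) and Espl1, all higher, against 11.9% of the genes with a q-value there. For spermidine against aged oocytes the authors' deposited table had 1 such gene, Ttk (log2 fold change -0.57, q-value 0.0308), against 4.09% of genes.

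The shugoshins, which shield cohesin at centromeres until the second division, passed in no comparison. Sgo1 averaged 30.5 ± 1.70 CPM in spermidine (SD, n = 4), 35.2 ± 8.41 CPM in aged and 34.99 ± 4.03 CPM in young oocytes (SD, n = 3 each), and Sgo2a, the form that carries this role in mouse oocytes, averaged 29.9 ± 1.45, 36.6 ± 5.39 and 35.2 ± 3.03 CPM. Spermidine overlapped the other groups for both genes.

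All 4 genes of spindle motors and spindle assembly had negative log2 fold changes in spermidine against aged and against young oocytes, and none passed. Tpx2, which activates aurora A and seeds spindle fibres around chromosomes, stood at 101, 90.2, 101 and 93.9 CPM in spermidine, at 145, 123 and 118 CPM in aged and at 116, 111 and 127 CPM in young oocytes. All spermidine libraries lay below all others (against aged -0.42, SE 0.12, edgeR adjusted p = 0.0654). Kif18a, a kinesin that dampens chromosome movement at the metaphase plate, stood at 39.6, 38.1, 40.1 and 39.0 CPM in spermidine, at 69.7, 46.9 and 43.6 CPM in aged and at 51.7, 45.8 and 58.3 CPM in young oocytes. Its spermidine libraries lay close together and below all others (against young -0.41, SE 0.17, edgeR adjusted p = 0.194). Cenpe, the kinesin that carries chromosomes along fibres, averaged 188 ± 19.4 CPM in spermidine (SD, n = 4), 211 ± 36.0 CPM in aged and 235 ± 14.1 CPM in young oocytes (SD, n = 3 each), and Kif11, the motor that pushes spindle poles apart, averaged 25.0 ± 2.70, 31.1 ± 9.37 and 28.8 ± 2.72 CPM.

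Among the 6 genes of the APC/C and anaphase, Espl1 passed for aged against young oocytes (16.7%, against 17.8% of all genes tested). It stood at 19.97, 18.0, 17.1 and 17.2 CPM in spermidine, at 28.3, 23.2 and 22.5 CPM in aged and at 13.6, 14.0 and 12.0 CPM in young oocytes. The 3 groups did not overlap, with aged oocytes on top and young ones at the bottom. The log2 fold change of aged against young was 0.90 (SE 0.15, edgeR adjusted p = 0.00321), a ratio of 1.87, and it passed in all 19 alternatives, from 0.48 to 1.04. The lowest, 0.48 (edgeR adjusted p = 0.0226), was the value with length and GC correction. Spermidine oocytes differed from aged ones by -0.45 (SE 0.14, edgeR adjusted p = 0.0813) and from young ones by 0.45 (SE 0.14, edgeR adjusted p = 0.0975), and neither passed. With length and GC correction these differences were -0.175 and 0.308. Pttg1, whose product securin holds separase inactive, averaged 3430 ± 643 CPM in spermidine (SD, n = 4), 2964 ± 238 CPM in aged and 3215 ± 234 CPM in young oocytes (SD, n = 3 each). The ratio of Espl1 to Pttg1 was 0.0054 ± 0.0010, 0.0083 ± 0.00039 and 0.0041 ± 0.00059 in the same order, with aged libraries above all others. This ratio was not corrected for transcript length and GC content. With that correction, aged against young gave 0.42 for Pttg1 (edgeR adjusted p = 0.0228), against -0.12 without it. The corrected value of Pttg1 was thus near the 0.48 of Espl1.

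Cdc27, an APC/C subunit to which its activators dock, stood at 177, 156, 161 and 134 CPM in spermidine, at 336, 226 and 178 CPM in aged and at 204, 173 and 237 CPM in young oocytes. Spermidine libraries lay below all aged ones, by a narrow margin (log2 fold change -0.65, SE 0.20, edgeR adjusted p = 0.0749). The activator gene Cdc20 averaged 88.0 ± 26.3 CPM in spermidine (SD, n = 4), 99.1 ± 49.3 CPM in aged and 102 ± 31.2 CPM in young oocytes (SD, n = 3 each). Fzr1, which encodes the activator CDH1 that keeps the APC/C active during prophase arrest, averaged 17.4 ± 6.45, 20.4 ± 7.87 and 13.4 ± 2.67 CPM, and Fbxo43 (EMI2), which holds the egg at metaphase, averaged 72.9 ± 9.43, 86.8 ± 4.53 and 84.9 ± 4.38 CPM. Neither activator nor Fbxo43 passed in a comparison.

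The cyclins, Cdk1 and Cdc25a did not pass in any comparison. Ccnb1 stood at 1397, 1898, 2363 and 2501 CPM in spermidine, at 1865, 2795 and 2399 CPM in aged and at 2420, 2315 and 2490 CPM in young oocytes. Ccnb2 stood at 246, 310, 322 and 330 CPM in spermidine, at 260, 329 and 305 CPM in aged and at 325, 315 and 309 CPM in young oocytes. Spermidine 1 and aged 1 were the lowest libraries of their groups for both, and all groups overlapped. Ccnb3, a cyclin needed in mouse oocytes for anaphase of the first division, stood at 19.3, 12.8, 14.7 and 11.4 CPM in spermidine, at 28.1, 15.3 and 10.9 CPM in aged and at 19.6, 16.7 and 25.5 CPM in young oocytes, again with overlap. Cdk1, the kinase that cyclin B activates, averaged 110 ± 13.9 CPM in spermidine (SD, n = 4), 98.3 ± 4.62 CPM in aged and 113 ± 4.25 CPM in young oocytes (SD, n = 3 each), and aged libraries lay below all young ones (log2 fold change -0.20, SE 0.14, edgeR adjusted p = 0.316). Cdc25a, a phosphatase that activates CDK1, averaged 14.2 ± 3.14, 15.3 ± 1.71 and 13.4 ± 3.24 CPM.

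**Figure D4:**
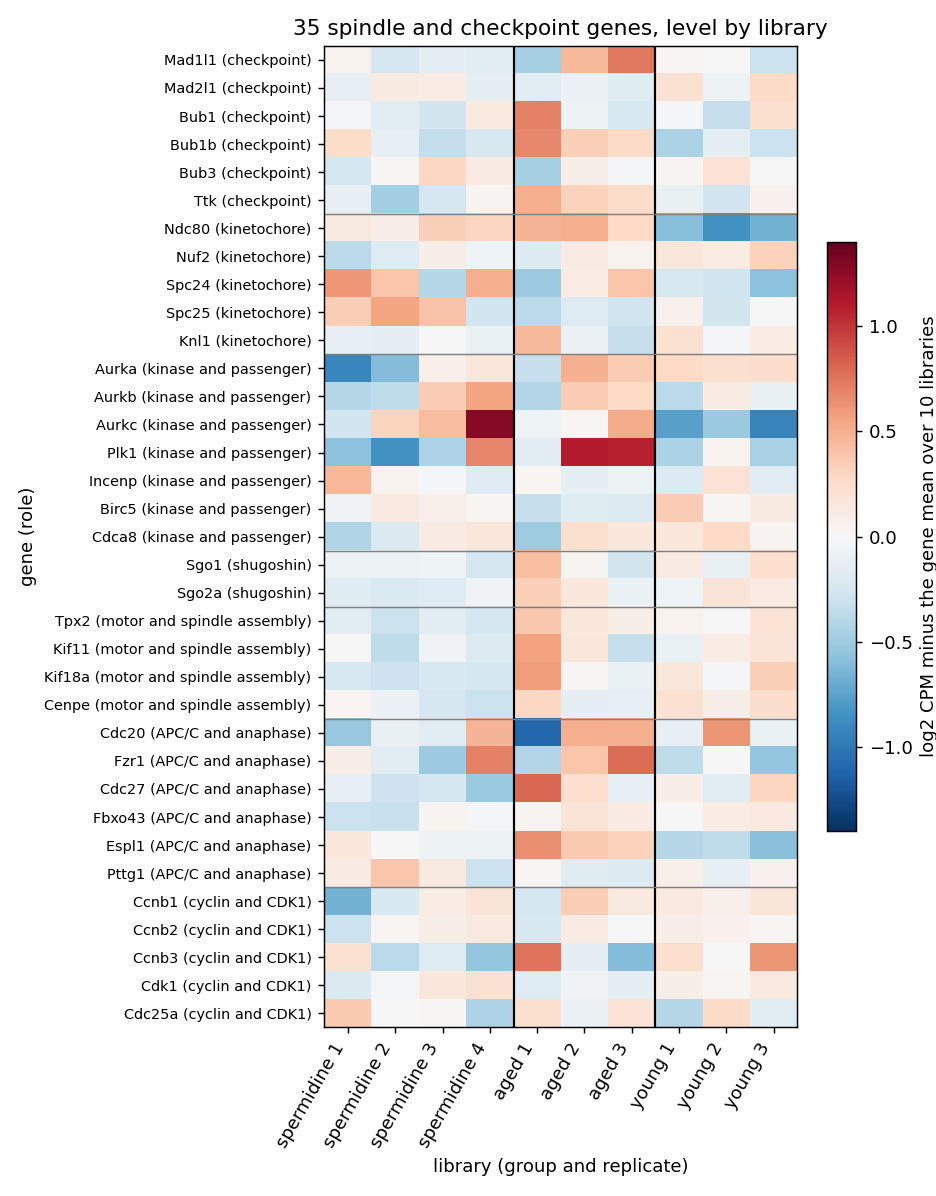
Log2 CPM of the 35 genes (rows, grouped by role) in the 10 libraries (columns, spermidine, aged, young), each gene minus its mean over libraries. Blocks of 1 colour across a whole group are visible for Ndc80, Espl1 and Aurkc, while in aged 1 the colours of Cdc20, Plk1 and Mad1l1 differ from those in aged 2 and 3.

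By group mean, 10 of the 35 genes had the order aged, young, spermidine from high to low, 8 young, aged, spermidine, and 7 aged, spermidine, young. The remaining 10 had young, spermidine, aged (5), spermidine, young, aged (3) or spermidine, aged, young (2). Spermidine oocytes thus had the lowest mean for 18 genes, among them Kif18a, Tpx2 and Aurka. The same count over all genes is not given. The order depends on TMM scaling. With library totals alone, 21 of the 35 genes lay higher in spermidine than in young oocytes, against 12 with TMM.

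Libraries of 1 group differed from each other along the GC content of the transcripts, and this touches several genes described above. Along transcript length, aged and young libraries also differed as groups. Over the 35 genes, the log2 deviation of a library from the other libraries of its group had a Pearson correlation with GC content of -0.722 in aged 1, 0.468 in aged 2, 0.782 in aged 3, -0.241 in young 1, 0.771 in young 2 and -0.851 in young 3. In spermidine 1 to 4 it was -0.137, -0.236, -0.317 and 0.426. With transcript length it was 0.532 in aged 1, -0.42 in aged 2 and -0.53 in aged 3. The genes are not independent replicates, and the libraries of a group share the values they are set against. Relative to aged 2 and 3, aged 1 was lower by 1.60 for Cdc20, 1.23 for Plk1 and 1.06 for Mad1l1 on the log2 scale (log2 differences of -1.60, -1.23 and -1.06), and higher by 0.85 for Bub1 and 1.12 for Ccnb3. Averaged over the 5 genes richest in GC (Cdc20, Plk1, Espl1, Mad1l1 and Fzr1, 55.6% to 59.9%), the log2 level relative to each gene's mean was -0.29 in aged 1, 0.56 in aged 2 and 0.68 in aged 3. For the 5 poorest (Knl1, Kif18a, Cdc27, Mad2l1 and Sgo2a, 37.9% to 40.5%) it was 0.41, 0.05 and -0.16. In young 1 to 3 it was -0.26, 0.06 and -0.40 for the richest and 0.12, -0.02 and 0.22 for the poorest. Over all genes tested, the deviation of a library from the mean of all libraries was also correlated with transcript length. This correlation was 0.41, 0.07 and 0.04 in aged and -0.21, -0.13 and -0.10 in young libraries, without overlap. In spermidine 1 to 4 it was 0.14, -0.10, -0.15 and -0.06.

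**Figure D5:**
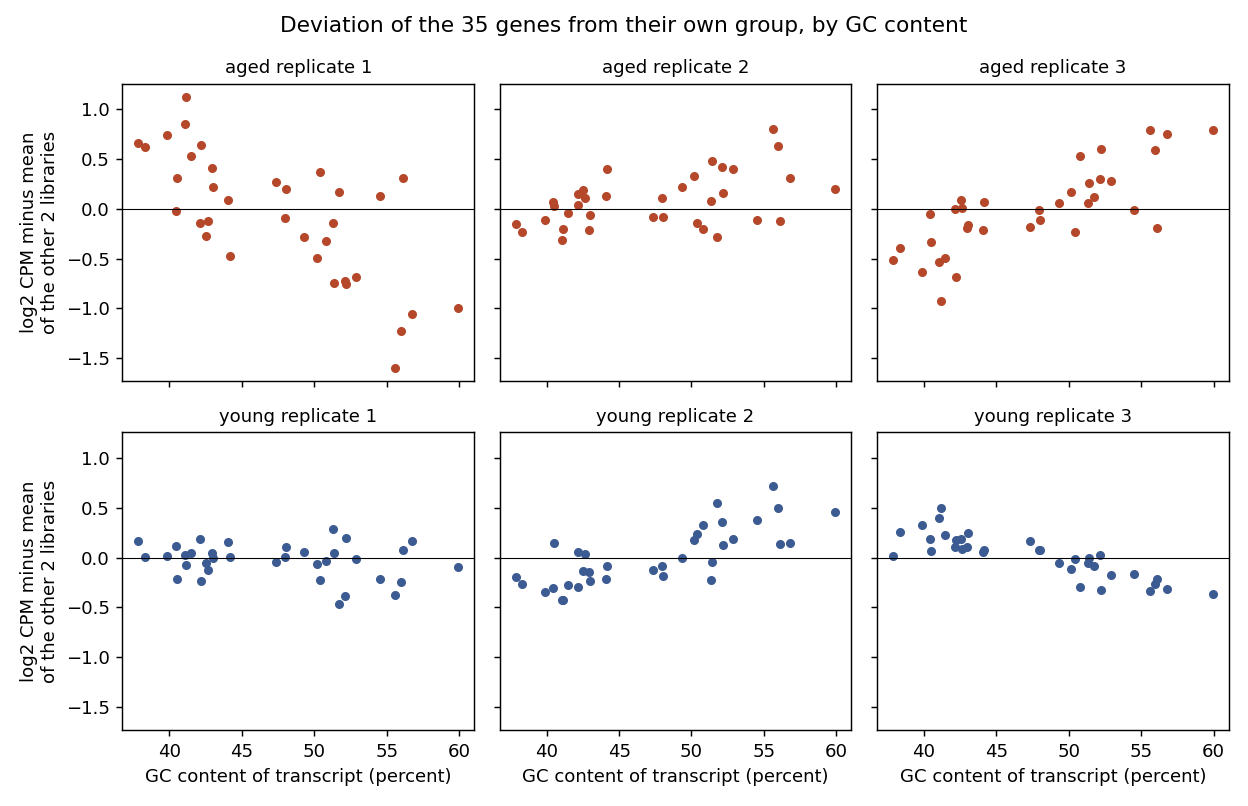
Log2 deviation of each of the 35 genes (points) from the mean of the other libraries of its group, against transcript GC content in percent, for the aged (top row) and young (bottom row) libraries. Points fall with GC content in aged 1 (r = -0.722) and young 3 (r = -0.851) and rise with it in aged 3 (r = 0.782) and young 2 (r = 0.771).

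Correction of each library for transcript length and GC content left Ndc80, Espl1 and Bub1b higher in aged than in young oocytes. The log2 fold change of Espl1 went from 0.90 to 0.48. Aurkc, Ttk and Pttg1 were added, 6 genes in all, against 15.5% of all genes tested with that correction. Pttg1 changed sign, from -0.12 without the correction to 0.42 with it (edgeR adjusted p = 0.0228). For spermidine against aged oocytes the corrected analysis had 4 genes lower, Cdc27, Ttk, Kif18a and Tpx2 (against 6.18% of all genes), and for spermidine against young oocytes Aurkc and Ndc80 higher and Cdc27 and Cenpe lower (against 7.54%). The part of the GC and length trends in the other results was not tested. Counting by strand is not given in the sources used here. Of the 35 genes, 7 share exon sequence with a gene on the opposite strand (Cdc20, Cdca8, Fzr1, Kif18a, Mad1l1, Plk1 and Sgo2a). Reads from the shared stretches, though not from the rest of these transcripts, may thus not be told apart. Counts of Cdc20, Cdca8, Fzr1, Mad1l1 and Plk1 were whole in all 10 libraries, and those of Sgo2a and Kif18a were not whole in 6 and 3.

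Other genes of the spindle and cell division machinery, 113 listed and all tested, had 7 higher and 10 lower in aged against young oocytes, which is 15% of them, against 17.8% of all genes tested. The balance turned with the processing: it was 10 higher and 3 lower with library totals, 8 and 3 with length and GC correction, and 6 and 16 without aged 1 and spermidine 1. Of 30 further kinetochore genes, 1 rose and 5 fell (20%, against 17.8% of all genes tested). Hjurp, the chaperone of the centromere histone, rose (33.3, 26.4 and 22.9 CPM in aged, against 15.4, 17.1 and 16.2 CPM in young oocytes, log2 fold change 0.76, SE 0.20, edgeR adjusted p = 0.022), a call lost without aged 1 (edgeR adjusted p = 0.061), young 1 (0.0979) and young 3 (0.0858). The inner kinetochore genes Itgb3bp (log2 fold change -0.73, SE 0.18), Cenpk (-0.68, SE 0.16) and Cenpl (-0.67, SE 0.16) fell, as did Zwint and Oip5. Itgb3bp passed in 15, Cenpk in 14 and Cenpl in 15 of 19 alternatives, and Cenpk was -0.12 with length and GC correction (edgeR adjusted p = 0.602). All 3 calls were lost with library totals. After the length and GC correction, 2 of the 30 rose and 1 fell, with a median of 0.02 against -0.21 before, and with library totals 1 rose and 0 fell.

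The spindle assembly list of 33 genes had 3 higher and 2 lower in aged oocytes (15.2%, against 17.8% of all genes tested). Haus1 and Haus7 encode subunits of 1 complex, augmin, which branches spindle fibres. Haus1 stood at 78.5, 89.6, 83.1 and 55.1 CPM in spermidine, at 91.0, 56.5 and 68.7 CPM in aged and at 37.9, 35.1 and 30.9 CPM in young oocytes. Haus7 stood at 19.5, 19.6, 22.3 and 18.0 CPM in spermidine, at 8.71, 13.4 and 13.9 CPM in aged and at 34.6, 29.4 and 27.8 CPM in young oocytes. For aged against young oocytes the log2 fold changes were 1.06 for Haus1 (SE 0.21, edgeR adjusted p = 0.00688) and -1.35 for Haus7 (SE 0.19, edgeR adjusted p = 0.00118), and both passed in all 19 alternatives. Haus3 had -0.57 (SE 0.16, edgeR adjusted p = 0.0292), passed in 13 of 19 alternatives and was -0.24 with length and GC correction (edgeR adjusted p = 0.281). Haus1 was also higher in spermidine than in young oocytes (1.15, SE 0.20, edgeR adjusted p = 0.00561), in 18 of 19 alternatives (lost without young 3, edgeR adjusted p = 0.0526). Haus7 was higher in spermidine than in aged oocytes (0.72, SE 0.18, edgeR adjusted p = 0.0432), but passed in 6 of 19 alternatives, with adjusted p-values up to 0.12 in edgeR. Prc1, which bundles fibres of the central spindle, rose in aged oocytes (0.61, SE 0.16, edgeR adjusted p = 0.0229), as did Numa1. The Prc1 call held in 13 of 19 alternatives and was lost without aged 1 (edgeR adjusted p = 0.091), aged 2 (0.053), young 1 (0.0811), young 2 (0.0683) and young 3 (0.0799), and without aged 1 and spermidine 1 together (0.0629).

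Of 17 genes for entry and exit kinases and phosphatases, 2 rose in aged oocytes and 0 fell (11.8%, against 17.8% of all genes tested). Wee1, a kinase that restrains CDK1, stood at 10.1, 9.50, 6.68 and 11.7 CPM in spermidine, at 9.81, 6.86 and 6.97 CPM in aged and at 3.23, 2.48 and 3.91 CPM in young oocytes. Young libraries lay below all others, with log2 fold changes of 1.302 for aged (SE 0.26, edgeR adjusted p = 0.00658) and 1.57 for spermidine against young oocytes (SE 0.25, edgeR adjusted p = 0.00264), and both passed in all 19 alternatives. Wee2, a related gene on the same list, passed in no comparison. Cdc25b, a phosphatase that activates CDK1, was higher in aged oocytes as well (0.90, SE 0.19, edgeR adjusted p = 0.00924), in 18 of 19 alternatives (lost without young 1, edgeR adjusted p = 0.0549). Of 10 checkpoint helper genes, Haspin, a histone kinase that recruits the passenger complex, rose (0.88, SE 0.20) and Mad2l1bp, which helps to switch the checkpoint off, fell (-0.73, SE 0.17), which is 20% of the list, against 17.8% of all genes tested. Mad2l1bp passed in all 19 alternatives, and the Haspin call was lost without young 1 (edgeR adjusted p = 0.0684) and young 3 (0.065). The 15 further APC/C subunits had 0 higher and 1 lower (6.67%), Anapc13 (-0.72, SE 0.19), which passed in 12 of 18 alternatives and was -0.23 with length and GC correction (edgeR adjusted p = 0.316). The 8 genes of APC/C inhibition and meiotic arrest had 0 higher and 1 lower (12.5%), Cks1b (-0.39, SE 0.12), which passed in 7 of 19 alternatives and turned to 0.08 with length and GC correction.

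Spermidine against aged oocytes gave 2 higher and 2 lower of these 113 genes, 3.54% against 4.86% of all genes. Anapc13 stood at 7.88, 8.99, 7.98 and 5.83 CPM in spermidine, against 5.11, 4.25 and 4.22 CPM in aged oocytes (log2 fold change 0.76, SE 0.18, edgeR adjusted p = 0.0388). The Anapc13 call held in 6 of 18 alternatives, and the log2 fold change was 0.42 with length and GC correction (edgeR adjusted p = 0.0916). Kif23, a kinesin of the central spindle, stood at 233, 222, 289 and 289 CPM in spermidine, against 404, 487 and 414 CPM in aged oocytes (-0.75, SE 0.14, edgeR adjusted p = 0.0167). Bora, the cofactor with which aurora A activates PLK1, stood at 26.3, 36.1, 37.9 and 25.9 CPM in spermidine, against 45.9, 66.5 and 60.3 CPM in aged oocytes (-0.87, SE 0.18, edgeR adjusted p = 0.0232). No spermidine library overlapped an aged one for these 3 genes. The Kif23 call held in 16 of 19 alternatives, being lost without spermidine 2 (edgeR adjusted p = 0.0654) and aged 2 (0.0793), and the Bora call in 15, being lost without spermidine 2 (edgeR adjusted p = 0.0502), aged 2 (0.095) and aged 3 (0.0691). Both were also lost with only the 2 groups compared. Spermidine against young oocytes gave 2 higher, Haus1 and Wee1, and 4 lower, Itgb3bp (-0.64, SE 0.17), Mad2l1bp (-0.65, SE 0.15), Sgo2b (-0.74, SE 0.18) and Kif20b (-0.53, SE 0.13), which is 5.31% of the 113 against 5.36% of all genes. All 4 of the lower calls were lost with library totals, and they held in 6 of 19 alternatives for Itgb3bp, 12 of 19 for Mad2l1bp, 9 of 18 for Sgo2b and 8 of 19 for Kif20b.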

How the data were processed

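Per the file headers, the table the authors deposited gives for each of 18493 genes a read count in every library. The counts the authors deposited are treated here as estimated counts (expected counts, the kind RSEM gives), since 15.85% to 16.65% of a library's values are not whole. It also holds the authors' deposited log2 fold changes, p-values and q-values for aged against young and spermidine against aged oocytes. Tools named without role or order in the submitters' processing notes are RSEM 1.3.1, Bowtie2 2.3.4.3 and DESeq2 1.4.5, and the build named is mm9.

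Rounding made the counts whole. A single robust quasi-likelihood model over the 10 libraries (edgeR 4.0.16, R 4.3.3) had the group as its term, TMM scaling and the filterByExpr filter, which left 12315 genes for the F test. P-values were adjusted by Benjamini-Hochberg across those genes, separately in the 3 comparisons, and 0.05 was the threshold. The SE is the one implied by the F statistic. Depth was 24222185 to 28730790 counts per library, without molecular identifiers, and CPM values were computed from the counts. No pair of libraries was identical. The procedure was tested on simulated data.

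The genes and lists were chosen with earlier results of these data known. A gene got its value in every library where it passed, where it was among the 3 smallest p of those that did not pass in a comparison, or as an aurora kinase or B-type cyclin. Further genes of the machinery were named where they passed, up to 4 of smallest p per list and comparison. Plk1, Zwint, Oip5, Numa1 and the genes given by means fell outside this rule. Transcript length and GC content came from GENCODE M21 on GRCm38, by gene ID for 97.4% of tested genes, and promoters from RefSeq on GRCm38.p6. Neither is mm9, so these coordinates are not those of the counting. Ratios were tested by exact permutation. The alternatives replaced TMM by RLE factors or library totals, dropped the filter or asked for 10 CPM in 3 libraries, used DESeq2 1.42.0, took in only the libraries of both groups compared, added a replicate block, corrected length and GC content (splines with 4 degrees of freedom), or left out aged 1 with spermidine 1, or each library in turn. Plots were made in matplotlib 3.10.9 under Python 3.11.15.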

Additional observations from a re-analysis of the deposited data

Results flagged for a closer look

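Each of the 35 genes was checked for a library that stands apart among the 4 spermidine libraries, and 1 was found, where chance gives about 5% of groups checked. Sgo1 in spermidine 4 had 27.9 CPM, against 31.3 CPM in the nearest and 31.5 CPM in the highest of the other spermidine libraries, a gap of 0.939 of the range of the group. The range itself is small beside that of the aged libraries, which ran from 27.5 to 44.2 CPM.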

How the results depend on the processing

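Calls among the 35 genes, 3 for aged against young oocytes, were 5 with library totals, 7 with DESeq2, 6 with the replicate block, 6 with length and GC correction and 6 without aged 1 and spermidine 1, and 2 to 6 when 1 library was left out. For spermidine against aged oocytes the 1 call became 0 with library totals, without a filter and with only the 2 groups compared, 6 with DESeq2, 3 with the replicate block and 4 with length and GC correction, and 0 to 3 when 1 library was left out. For spermidine against young oocytes the 2 calls became 4 with length and GC correction, and 1 to 3 when 1 library was left out. The numbers of higher and lower genes in DESeq2 were 6 and 1, 1 and 5, and 2 and 0 in these comparisons.

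Of the 113 other division genes, 17 calls for aged against young oocytes became 26 with DESeq2 and 11 with length and GC correction (5 to 19 with 1 library left out). The 4 calls for spermidine against aged oocytes became 2 without a filter, 17 with DESeq2, 0 with only the 2 groups compared, 14 with the replicate block, 8 with length and GC correction and 7 without aged 1 and spermidine 1 (0 to 16). The 6 calls for spermidine against young oocytes became 2 with library totals, 3 with the filter of 10 CPM, 11 with DESeq2 and 10 with length and GC correction (1 to 8). Of all genes tested, 2189 calls for aged against young oocytes became 1179 with the filter of 10 CPM (827 to 2362 with 1 library left out). The 598 for spermidine against aged oocytes became 259 with library totals, 1355 with DESeq2, 124 with only the 2 groups and 998 with the replicate block (99 to 1127). The 660 for spermidine against young oocytes became 273 with the filter of 10 CPM and 1073 with DESeq2 (283 to 874). The causes were not tested. The log2 fold change of Cks1b for aged against young oocytes turned to 0.0799 with length and GC correction (edgeR adjusted p = 0.674). That of Pttg1 turned from -0.12 to 0.42 with the same correction (edgeR adjusted p = 0.0228).

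Libraries share replicate numbers, but nothing says that the numbers pair them. Deviations of libraries with the same number had correlations of 0.167, 0.168 and -0.275 for aged and young, 0.408, -0.091 and 0.059 for spermidine and aged, and -0.073, -0.194 and -0.035 for spermidine and young oocytes, and not every library correlated best with its own number, so the block counts above carry no evidence of pairing. Depth limits the rarest gene, Mad1l1, with 120 to 300 counts.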
